A study of Homo sapiens with 18 samples.

Results

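The regions described here are the 315 wild-type MYC eCLIP peaks whose summit lay in the last 20% of the length of a protein-coding gene. They were chosen from the list of 2149 wild-type peaks by position alone. The host was the shortest RefSeq gene that held the summit, protein-coding hosts of at least 5 kb were kept, and position was counted along the strand of the peak. These hosts held 1519 wild-type summits, of which 809 lay in the first 20% of the gene, 395 in the middle 60% and 315 (20.7%) in the last 20%. They are called first-fifth, middle and last-fifth peaks below. The 315 last-fifth peaks lay in 240 genes, or 1.43% of the 16841 protein-coding genes of that length, and first-fifth peaks in 737 (4.38%).

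In enhanced crosslinking and immunoprecipitation (eCLIP), cells are irradiated with ultraviolet light so that a protein becomes attached to the RNA it touches, and the RNA recovered with the protein is read by sequencing. U2OS-MYC-KO-MYC-Tet-On cells were used, a human osteosarcoma line in which MYC had been knocked out and FLAG-tagged MYC was induced with doxycycline. The alleles were wild type and the mutants 3A and 7A, whose changed residues are not named in the labels. Every allele was studied in cells given 1 µg/mL doxycycline for 24 h and in cells given PBS for 24 h. Each of these had 2 biological replicates precipitated with a FLAG antibody and 1 input library, which makes 18 libraries. The sources used here do not say whether each line was 1 clone. The peak lists analysed are those with doxycycline, 1 list per allele, so no value below has a replicate check or a test, and the depth behind the lists is unknown. Lists for the PBS-treated cells were not analysed here, and a background in uninduced cells is therefore not given. The 3A list held 103 peaks and the 7A list 88.

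MYC regulates transcription. With its partner MAX it binds the E-box, a short palindrome in DNA, at the promoters of many genes for ribosome production, translation, nucleotide synthesis and glycolysis. The last part of a gene usually holds its last coding exon, its 3′ untranslated region and its polyadenylation site, where the transcript is cut. The gene table used here gives no exons, so a peak near a gene end could not be assigned to coding sequence, untranslated region or intron. Fold enrichment is the authors' ratio for a peak over a control or background that is not given in the sources used here, and it was compared only within the wild-type list. Expression was not measured, and its part in any count below was not tested.

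Position at the end of one gene can be position at the start of another. Of the 315 last-fifth peaks, 9 had their summit between 50 bp before and 500 bp after a RefSeq-listed gene start on the strand of the peak (2.86%). Among first-fifth peaks this held for 570 of 809 peaks (70.5%), and among middle peaks for 31 of 395 (7.85%). A start was listed for 13505 of the 16841 protein-coding genes of at least 5 kb. Peaks at an unlisted start could not be counted, so these 3 shares can be too low. The listed start belonged to another gene than the host for 7 of the 9, at distances of 80 to 344 bp. In 6 of the 7 the listed strand of the host was opposite to that of the peak. These were the peaks assigned to TSACC, ELP5, SLC35A5, NDUFC1, SGTB and AP4M1, whose summits lay after the starts of CCT3, CTDNEP1, ATG3, NAA15, NLN and MCM7. The seventh, assigned to ARHGAP9, lay 80 bp after the start of MARS1, the methionyl-tRNA synthetase gene. The peak at TSACC had a fold enrichment of 21.8 and lay 122 bp after the start of CCT3, a subunit of the CCT chaperonin, which folds actin and tubulin. The peak at AP4M1 had 11.1 and lay 99 bp after the start of MCM7, a subunit of the replicative helicase. The other two lay after listed starts of their own hosts. One of them, in DYNLL1, a dynein light chain gene, had the second highest fold enrichment of all 315 (26.4), with its summit 97 bp after a DYNLL1 start.

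The stretches around 5 of these starts are shown because they are where a peak counted as last-fifth sits at the head of a transcript. Each runs 5′ to 3′ from 60 bases before the start, with the first 25 bases after it in capitals, and is from the RefSeq promoter table of GRCh38.p14.
CCT3, chr1:156338268-156338352, minus strand: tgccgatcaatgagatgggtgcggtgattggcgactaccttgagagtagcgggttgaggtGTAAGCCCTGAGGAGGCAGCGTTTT
MCM7, chr7:100101373-100101457, minus strand: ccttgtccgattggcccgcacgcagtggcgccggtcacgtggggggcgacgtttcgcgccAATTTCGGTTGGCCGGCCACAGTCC
ATG3, chr3:112561938-112562022, minus strand: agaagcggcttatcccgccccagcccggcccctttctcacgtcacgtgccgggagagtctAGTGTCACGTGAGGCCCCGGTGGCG
NLN, chr5:65722145-65722229, plus strand: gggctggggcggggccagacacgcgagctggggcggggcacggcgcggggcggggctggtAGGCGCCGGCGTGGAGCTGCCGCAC
DYNLL1, chr12:120496053-120496137, plus strand: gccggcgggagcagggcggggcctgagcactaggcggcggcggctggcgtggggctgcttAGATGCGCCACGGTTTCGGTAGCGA
The peaks began 69 bp after the start at CCT3, 60 bp at MCM7, 199 bp at ATG3, 43 bp at NLN and 16 bp at DYNLL1. Of the 9 such stretches, 3 held the whole E-box CACGTG, those of MCM7, ATG3 and RNF220. The NLN stretch as printed ends inside a further CACGTG, which was found in the start window of SGTB on the other strand.

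The E-box was also counted at the starts of all hosts. The motif searched was CACGTG, which reads the same on both strands, in windows from 250 bp before to 50 bp after each listed start. A window was listed for 203 of the 240 hosts, and 37 of the 203 held the motif in at least 1 window (18.2%, 95% Wilson interval 13.5 to 24.1). Among hosts of first-fifth peaks it was 107 of 617 (17.3%, 14.6 to 20.5), and among all protein-coding genes of at least 5 kb 1533 of 13505 (11.4%, 10.8 to 11.9). Counted by window, the shares were 12.3% of 316 for hosts of last-fifth peaks, 13.8% of 803 for hosts of first-fifth peaks, 8.40% of 19644 for protein-coding genes of at least 5 kb and 7.26% of all 35116 listed windows. Of the 120 hosts with a window that had a last-fifth and no first-fifth peak, 26 held the motif (21.7%, 15.2 to 29.9). Counted by window it was 27 of 206 (13.1%), between the shares for hosts of last-fifth and of first-fifth peaks. The shares for hosts of last-fifth and of first-fifth peaks were thus close, and both were above that of coding genes at large. No test was made, and a match is not a measured binding site.

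Stretches with the E-box in capitals are shown for hosts named below, SET, SLC7A5, TUBA1C, LDHA, EIF4G1, TOM1 and PIAS4. All lie before the listed start.
SET, chr9:128683557-128683602, plus strand: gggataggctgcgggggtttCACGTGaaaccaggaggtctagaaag
SLC7A5, chr16:87869612-87869657, minus strand: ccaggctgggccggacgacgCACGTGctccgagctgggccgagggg
TUBA1C, chr12:49265010-49265055, plus strand: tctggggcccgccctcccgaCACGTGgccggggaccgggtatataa
LDHA, chr11:18394456-18394501, plus strand: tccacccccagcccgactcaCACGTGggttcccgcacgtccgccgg
EIF4G1, chr3:184314519-184314564, plus strand: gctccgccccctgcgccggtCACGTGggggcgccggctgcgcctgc
TOM1, chr22:35299835-35299880, plus strand: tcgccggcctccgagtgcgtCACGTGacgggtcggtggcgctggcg
PIAS4, chr19:4007689-4007734, plus strand: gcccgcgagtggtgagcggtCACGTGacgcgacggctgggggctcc
TOM1 and PIAS4 are shown because their last-fifth peaks met peaks of both mutants, and the others because they lead by fold enrichment or belong to the translation and glycolysis lists.

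Within the last 20% of the gene the summits were densest at the very end. From 80% to 85% of the host's length there were 37 summits, from 85% to 90% 57, from 90% to 95% 73, and in the last 5% 148, or 47.0% of the 315. In the 15 bins of 5% between 5% and 80% of the gene, the number of summits per bin was between 24 and 63. The first 5% of the genes held 675. Summits were thus concentrated at both ends of the genes, and less at the 3′ end.

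**Figure D1:**
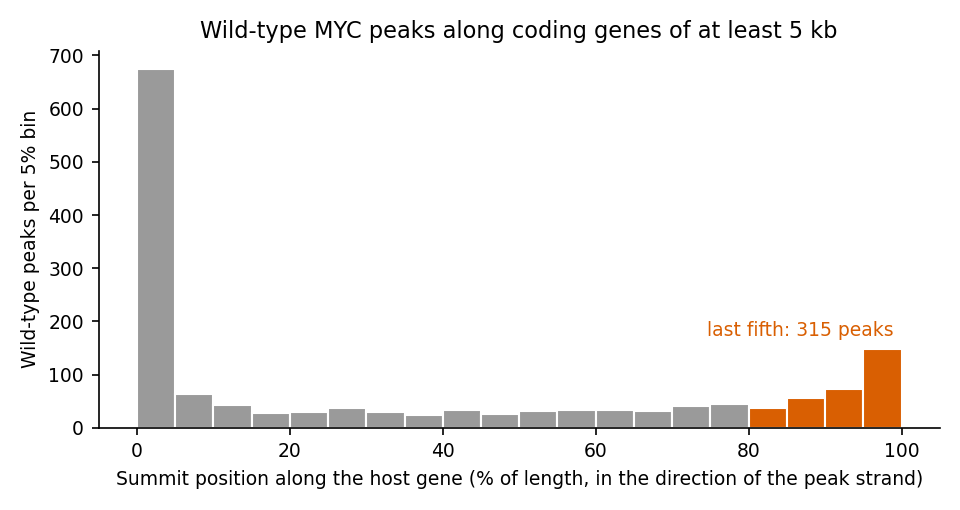
Number of wild-type summits in each 5% bin along protein-coding hosts of at least 5 kb (1519 summits), with position on the x axis as percent of gene length in the direction of the peak's strand. Orange bars are the 315 last-fifth summits, which rise to 148 in the last bin, against 675 in the first.

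In base pairs, the median distance from summit to gene end was 914 (95% order-statistic interval 733 to 1090), with quartiles of 310.5 and 2064. Summits within 250 bp of the end numbered 64 (20.3%), within 500 bp 111 (35.2%, 95% Wilson interval 30.2 to 40.7), and within 1000 bp 165 (52.4%, 46.9 to 57.8). Nearest to an end were STIP1, a co-chaperone linking HSP70 and HSP90 (34 bp), the pyruvate kinase gene PKM (57 bp), the ATP synthase subunit gene ATP5PO (60 bp), the elongation factor gene EEF2 (60 bp) and the ribosomal protein gene RPL5 (65 bp). Farthest was TENM3, a gene of over a megabase, at 201923 bp. It was followed by HK1, the hexokinase gene (24849 bp), and MAP4, a microtubule-associated protein gene (20315 bp). In long genes the last 20% therefore reaches far from the end. Fold enrichment hardly varied with this distance, with a median of 6.84 among the 111 within 500 bp and 6.89 over all 315. Across the 315 peaks, which share libraries and depth, Spearman's rho between fold enrichment and distance was 0.12.

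The median fold enrichment of last-fifth peaks was below that of peaks in the other parts of the gene. Their fold enrichment ran from 1.71 to 27.4 with a median of 6.89 (95% order-statistic interval 6.64 to 7.48). The median was 8.38 (8.13 to 8.80) for first-fifth peaks and 8.15 (7.53 to 8.68) for middle peaks. These intervals cover counting error over peaks only, and the difference was not tested, since peaks of 1 list are not replicates. Of the 315 peaks, 120 (38.1%, 95% Wilson interval 32.9 to 43.6) reached the median of the whole wild-type list, 8.11, against 53.6% of first-fifth peaks and 50.6% of middle peaks. Among the 100 peaks of highest fold enrichment in these hosts, 12 were last-fifth, 52 first-fifth and 36 middle. Of all 1519 peaks in these hosts, 20.7% were last-fifth, 53.3% first-fifth and 26.0% middle. The first-fifth count was thus near that group's share, the last-fifth count below it and the middle count above it. By −log10 q the last-fifth median was 14.8, against 16.8 for first-fifth and 18.3 for middle peaks. Of the top 100 by −log10 q, 16 were last-fifth, 54 first-fifth and 30 middle. Last-fifth peaks were slightly wider, with a median of 177 bp (166 to 188) against 167 and 159 bp. A width of 400 bp was exceeded by 20 of them (6.35%), by 3.96% of first-fifth peaks and by 6.08% of middle peaks.

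**Figure D2:**
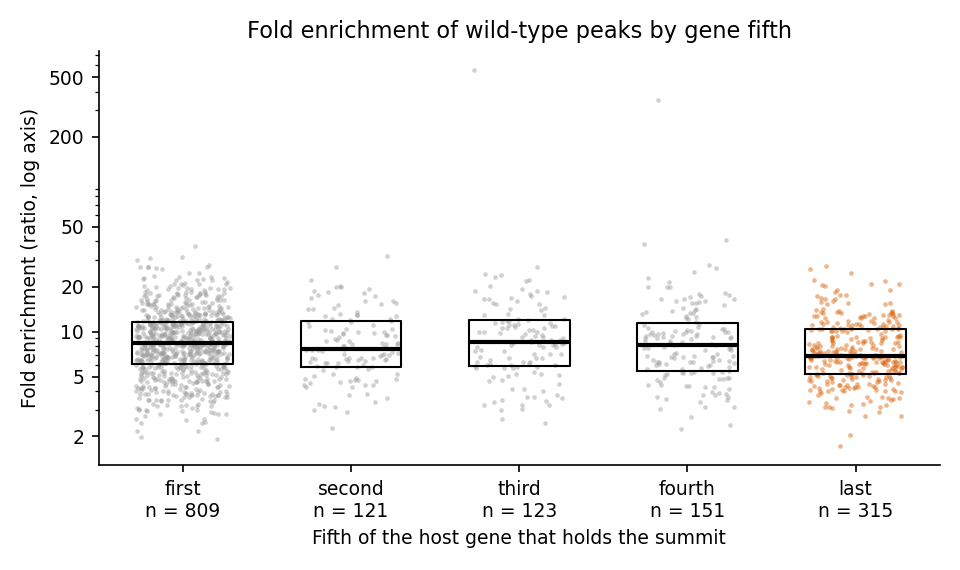
Fold enrichment (ratio, log axis) of each wild-type peak by the part of the host gene that holds its summit, in steps of 20% of gene length, with boxes at the quartiles and a thick line at the median. Last-fifth peaks (orange, 315 peaks) have a median of 6.89 and none above 27.4, and the 809 first-fifth peaks have a median of 8.38.

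The strongest last-fifth peak lay in RPL5, which encodes a protein of the large ribosomal subunit that carries 5S ribosomal RNA. It spanned chromosome 1 from 92841778 to 92841932 (hg38), at the end of a gene annotated from 92831986 to 92841924, with a fold enrichment of 27.4 at a −log10 q of 93.0. The summit also lies inside DIPK1A, a longer gene. After RPL5 and DYNLL1 came SET, a histone chaperone and phosphatase inhibitor (24.5), on chromosome 9 from 128694758 to 128694879. VEGFA, the vascular endothelial growth factor gene, had 22.3, on chromosome 6 from 43785057 to 43785252. The peak at TSACC, described above at the start of CCT3, had 21.8. NME1, a nucleoside diphosphate kinase that supplies GTP and other nucleotides, had 20.7. RACK1, a scaffold protein of the small ribosomal subunit, also had 20.7, and DCLK2, a doublecortin-like kinase, had 20.3.

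The next peaks by fold enrichment were in CCDC124, a ribosome-associated factor (20.2), CCT5, a chaperonin subunit (19.1), PFDN2, a subunit of prefoldin, which hands nascent proteins to the chaperonin (18.8), and VDAC1, the mitochondrial outer membrane channel (18.3). CALM2, a calmodulin gene, had 17.7, EIF5A, a translation factor that carries hypusine, also 17.7, and LMNA, the lamin A gene, 17.3. Ranked by −log10 q the order was different. HSP90AB1, a cytosolic HSP90 gene, led with 243 at a fold enrichment of 10.8, followed by ENO1, the enolase gene (167), EIF5A (125), the other HSP90AB1 peak (111), SET (99.5) and RPL5 (93.0). RACK1 (87.2), a further ENO1 peak (83.0), SLC7A5, the large neutral amino acid transporter gene (81.6), and the remaining last-fifth peak of ENO1 (81.0) completed the 10. Over all 315 peaks Spearman's rho between fold enrichment and −log10 q was 0.61.

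The widest last-fifth peaks were a pair in SLC7A5, of 1222 and 976 bp, and the others were in HNRNPF (1001 bp), CLUH (872 bp) and HNRNPM (766 bp). HNRNPF and HNRNPM are RNA-binding proteins of splicing, and CLUH binds messages of mitochondrial proteins. Width hardly varied with fold enrichment, with a Spearman's rho of 0.06 over the 315 peaks.

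Most hosts held a single last-fifth peak. Of the 240 hosts, 182 had 1, 43 had 2, 13 had 3 and 2 had 4. The hosts with 4 were PKM and FASN, the fatty acid synthase gene. Those with 3 were the glycolytic genes ENO1 and ALDOA, the translation genes EEF2, EEF1A2, RACK1 and LARP1, the chaperonin gene CCT7, the nucleolar gene TCOF1, the transporter genes SLC7A5 and SLC29A1, the splicing factor gene SRRM2, the dynein-associated NUDC and the chromatin protein gene HMGA1. Neighbouring summits in a host were 723 bp apart at the median over 75 pairs, and at least 75 bp apart. Neighbouring peaks can be parts of 1 bound region, so they are not independent of each other.

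Peaks of 1 host differed in strength. In RACK1 the fold enrichments were 20.7 at 1230 bp from the end, 6.39 at 733 bp and 10.5 at 88 bp. In EEF1A2, an elongation factor gene, they fell toward the end, from 13.6 at 1050 bp through 8.39 at 317 bp to 4.63 at 109 bp. TCOF1, which encodes a nucleolar factor of ribosomal RNA transcription, showed the opposite order, with 3.32 at 3654 bp, 4.02 at 383 bp and 11.5 at 132 bp. In CCT7 all 3 were alike, between 12.7 and 13.4. The strongest peak was thus not at a fixed place relative to the end. The 4 PKM peaks were all weak by fold enrichment, from 2.72 to 5.09, although their −log10 q values were 19.2 to 51.8.

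**Figure D3:**
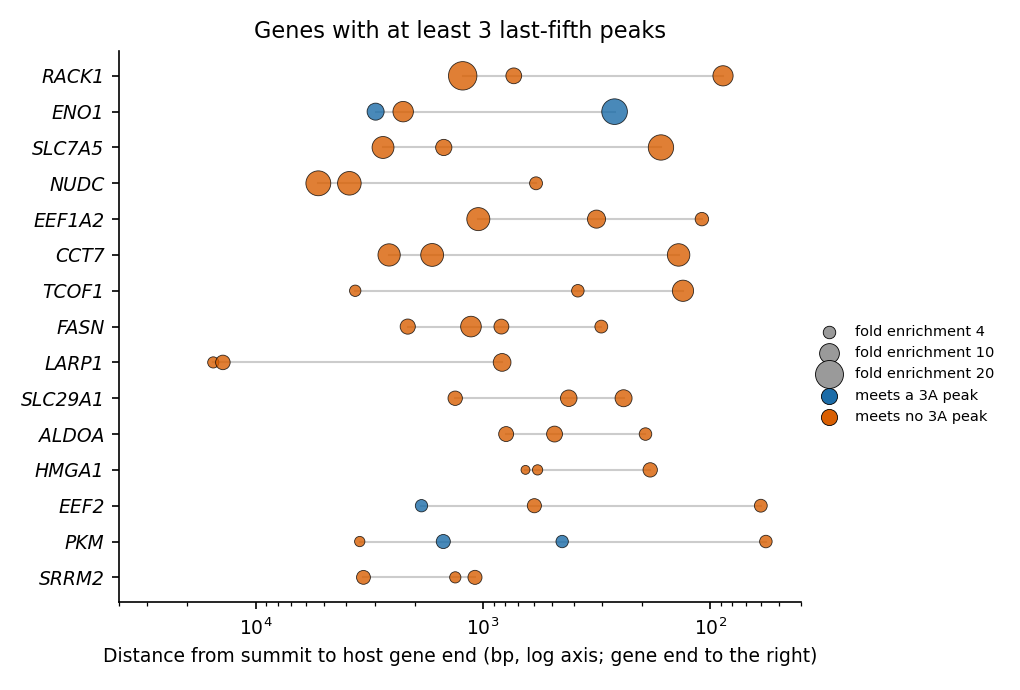
The 15 hosts with at least 3 last-fifth peaks, with the distance from summit to gene end on the x axis (bp, log axis, gene end to the right), circle area proportional to fold enrichment, and blue for peaks that meet a 3A peak. RACK1 has its largest circle 1230 bp from the end and TCOF1 its largest 132 bp from the end.

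Many hosts also held peaks elsewhere. Of 240 hosts, 100 (41.7%, 95% Wilson interval 35.6 to 48.0) had a first-fifth peak too, 81 (33.8%) had a middle peak, 38 had both, and 97 (40.4%, 34.4 to 46.7) had last-fifth peaks alone. In the 100 hosts with peaks at both ends, the strongest first-fifth peak was set against the strongest last-fifth peak, with middle peaks left out. The first-fifth peak had the higher fold enrichment in 66 and the last-fifth peak in 34, with medians of 10.2 and 7.68. A middle peak could exceed both, as in LDHB, where one had 40.8. RPL5 was one of the 34, with 27.4 at its end and 14.02 for its first-fifth peak of highest value. VEGFA had 22.3 against 12.2, RACK1 20.7 against 9.22 and CCT5 19.1 against 8.09. NME1 went the other way, with 20.7 at its end and 37.1 for its first-fifth peak. DYNLL1, DCLK2, PFDN2, VDAC1, CALM2, LMNA, TOM1 and PIAS4 held last-fifth peaks alone.

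Several translation factor genes were among the hosts. Over all protein-coding genes of at least 5 kb, 1.43% held a last-fifth peak. The share was 4 of 10 in the list of elongation and release factors, in which RACK1 was included. It was 7 of 38 in the list of initiation factors, in which EIF5A and the inhibitor EIF4EBP1 were included. Among genes with any wild-type peak the counts were 4 of 6 and 7 of 17, against 240 of 987 over all genes. The hosts in the elongation list were RACK1 (20.7), EEF1A2 (13.6), EEF2 (5.11) and EEF1G (4.72), each given with its strongest peak. EEF2 moves the ribosome along the message, and EEF1A2 and EEF1G belong to the system that delivers aminoacyl-tRNA. The hosts in the initiation list were EIF5A (17.7), EIF3H (10.9), EIF3B (9.21), EIF4G1 (7.18), EIF6 (6.03), EIF3A (5.35) and EIF4EBP1 (4.96). EIF3A, EIF3B and EIF3H are subunits of EIF3, EIF4G1 is the scaffold of the cap-binding complex, and EIF4EBP1 inhibits the assembly of that complex. Of 23 aminoacyl-tRNA synthetase genes and their partners, 11 held any wild-type peak. Hosts among them were 4, SARS1 (13.4), KARS1 (12.8), YARS1 (11.3) and GARS1 (6.49). The lists were chosen with earlier results of these data known, so a count above 1.43% describes the hosts and is not independent support.

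Ribosomal protein genes were hosts at shares of 16.0% for the large and 13.3% for the small subunit, against 1.43% of all protein-coding genes of that length. In the large subunit 4 of 25 genes of sufficient length were hosts, among them RPL5 (27.4), RPL11 (10.7) and RPL38 (4.85), while 13 held a first-fifth peak. In the small subunit 2 of 15 were hosts, among them RPS4X (6.15), while 7 held a first-fifth peak. Over all genes of at least 5 kb the corresponding numbers were 240 and 737, so the ratio of last-fifth to first-fifth hosts was near that of all genes. Ribosomal protein genes shorter than 5 kb were outside the selection.

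Genes of ribosome production held last-fifth peaks in 13 of 34 cases, against 1.43% of all protein-coding genes of that length. Any wild-type peak was held by 23 of the 34. Over all genes, 240 of the 987 with any peak were hosts. NCL, which encodes nucleolin, had 13.7 and 10.8, and TCOF1 had 11.5. EBNA1BP2 (10.6), NOP56 (10.4), a core protein of box C/D small nucleolar RNPs, PES1 (10.3), of the complex that matures the large subunit, and WDR43 (10.0), of the small subunit processome, followed. NAT10, RRP12, RRP1, DKC1, NOLC1, NPM1 and BYSL were the others, between 9.33 and 4.66. Over the 16 peaks of this list the median fold enrichment was 9.20, against 6.89 for all last-fifth peaks.

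Of 26 chaperone genes, 9 were hosts, against 1.43% of all protein-coding genes of that length, and 20 held any wild-type peak. Of the 9 hosts, 4 encode subunits of the CCT chaperonin. CCT5 had 19.1, CCT7 13.4, CCT8 12.6 and CCT3 8.10 at its own end. The peak assigned to TSACC, at the start of CCT3, was not counted in this list. HSP90AB1 (10.8) and HSP90AA1 (10.2) are the cytosolic HSP90 genes, DNAJA1 (8.70) is an HSP70 partner, and STIP1 (6.62) bridges HSP70 and HSP90. CALR, a chaperone of the endoplasmic reticulum, had 5.83. The 15 peaks had a median of 10.1.

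Glycolysis had the highest share of hosts among the lists, 8 of 14 genes, against 1.43% of all protein-coding genes of that length. ENO1 (16.8) and GPI (16.5), the phosphoglucose isomerase gene, were the strongest. LDHB (10.3) and LDHA (7.26), which encode the lactate dehydrogenase subunits, HK1 (8.38), PGK1 (6.88), ALDOA (6.45) and PKM (5.09) followed. All 8 glycolytic genes of this length with any wild-type peak thus had a last-fifth peak, whereas 4 had a first-fifth peak. Over all 987 genes of this length with any peak, 240 had a last-fifth peak and 737 a first-fifth peak. Their 17 last-fifth peaks had a median fold enrichment of 6.98, near that of all last-fifth peaks. The ALDOA summits also lie inside a longer coding gene, LOC112694756.

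Oxidative phosphorylation genes were hosts in 8 of 44 cases, or 8 of the 22 with any wild-type peak. Most of their last-fifth peaks lay within 250 bp of the gene end, as did 64 of all 315 last-fifth peaks (20.3%). These hosts were short, from 5489 bp (NDUFS3) to 16254 bp (ATP5MC2), against a median host length of 17687 bp over last-fifth peaks. The part of gene length in this closeness was not tested. NDUFS3 (12.4) and NDUFS6 (11.8), subunits of complex I, had summits 147 and 83 bp from the end. ATP5PO (7.48), NDUFB7 (6.43), NDUFB9 (6.25) and ATP5MC2 (4.11) had them at 60, 92, 101 and 67 bp. COX4I1, of cytochrome c oxidase, had a peak at 167 bp (3.62) and one at 1238 bp (6.76), and COX6B1 had one at 78 bp (3.55). The other lists with hosts had smaller shares, from 2.86% to 11.8%, all above the 1.43% of all protein-coding genes of that length. Among genes with any wild-type peak, however, 240 of 987 were hosts. The counts were then 1 of 12 helicases, 4 of 20 splicing factors, 3 of 16 nucleotide synthesis genes and 3 of 12 proteasome subunits. They were 2 of 10 for lipid synthesis, 2 of 8 for DNA replication and 2 of 5 for the cytoskeleton. Except for the cytoskeleton, these were near or below the share over all genes with a peak. Nucleotide and one-carbon synthesis had 3 of 30, NME1 (20.7), NME2 (11.1) and the spermidine synthase gene SRM (8.58). Splicing factors had 4 of 34, HNRNPF (11.7), HNRNPM (5.10), HNRNPR (4.34) and HNRNPAB (3.60). Proteasome subunits had 3 of 28, led by PSMD1 (10.1), DNA replication 2 of 27, MCM3 (8.35) and TYMS (4.02), and lipid synthesis 2 of 27, FASN (10.9) and SCD (8.22). The cytoskeleton list had 2 of 22, TUBA1C (15.4) and ACTN1 (3.08), and the helicases 1 of 35, DHX37 (6.84). Matrix and adhesion genes had 0 of 27. Of 10 mesenchymal markers chosen for this line 0 were hosts and 1 held any wild-type peak, and of 16 markers of other cell types 0 held any, so the list says little on the cell type. The 19 lists together covered 76 of the 240 hosts (31.7%).

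**Figure D4:**
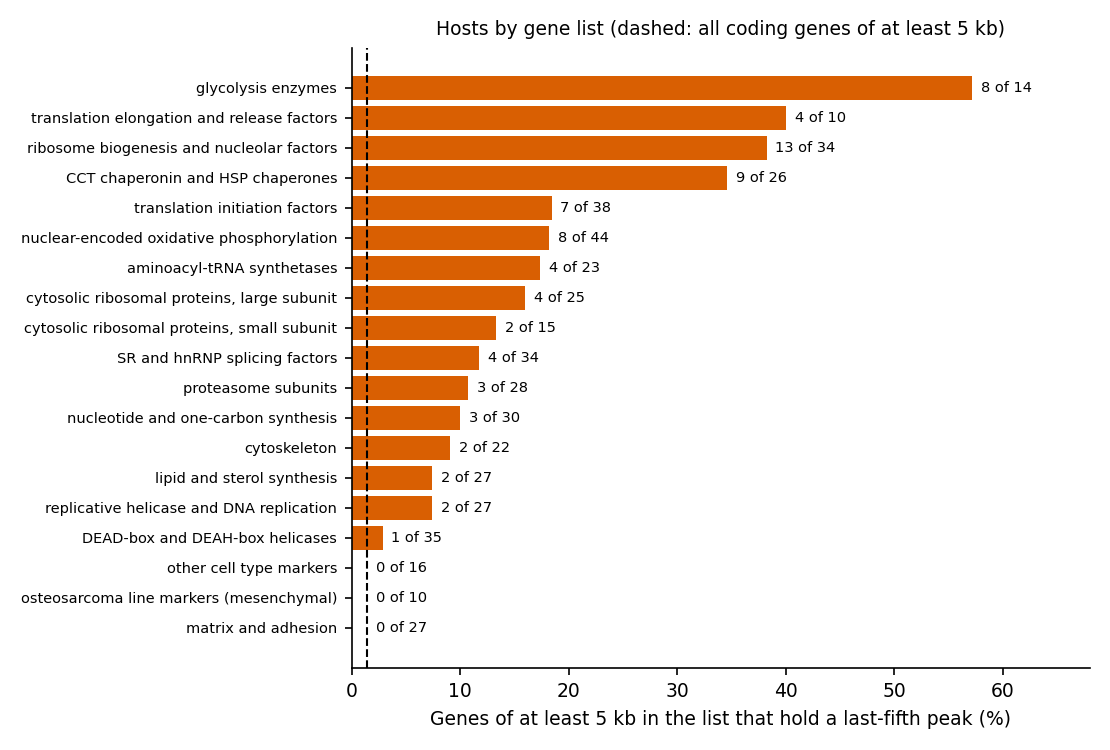
Share of the genes of at least 5 kb in each list that hold a last-fifth wild-type peak (x axis, percent), with the number of hosts and of genes printed at each bar. The dashed line marks the 1.43% of all 16841 protein-coding genes of that length, and glycolysis is highest with 8 of 14.

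Few last-fifth peaks were met by a peak of a mutant. With 1 shared bp counted as meeting, 11 of 315 met a 3A peak (3.49%, 95% Wilson interval 1.96 to 6.14), against 2.63% of the 1519 wild-type peaks in these hosts. A 7A peak was met by 7 (2.22%, 1.08 to 4.52), against 1.05%. Of first-fifth peaks 19 of 809 met a 3A peak (2.35%, 1.51 to 3.64) and 2 met a 7A peak (0.247%, 0.0678 to 0.897). Of middle peaks 10 of 395 met a 3A peak (2.53%, 1.38 to 4.597) and 7 met a 7A peak (1.77%, 0.861 to 3.61). The 3A share was thus near that of all these peaks. The 7A share was close to that of middle peaks, and both were above that of first-fifth peaks. No test of these differences was made. In all, 13 last-fifth peaks in 9 hosts met a mutant peak, and every such overlap was on the same strand. They comprised 5 that met both mutants, 6 that met 3A and not 7A, and 2 that met 7A and not 3A.

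The 6 peaks that met 3A and not 7A lay in ENO1, PKM, EEF2 and HSP90AB1. ENO1 had 2 of them. At its end, on chromosome 1 from 8860979 to 8861369, a wild-type peak of 16.8 met a pair of 3A peaks, with 7.81 and 4.06 in the 3A list, and the summit of the former was at the same base as that of the wild type. The other ENO1 peak (7.43) had a 3A peak of 3.50, also with its summit at the same base. PKM had 2 (3.93 and 5.09), with 3A values of 2.86 and 4.88, and EEF2 had 1 (3.90) with 3.84. The HSP90AB1 peak of highest −log10 q was met by a 3A peak of 8.40, whose summit was 4 bp away. Values of the 3 lists stand side by side here without a comparison, because their depth and control are unknown. The median −log10 q of these 6 wild-type peaks was 67.4, against 14.4 in the 302 peaks that met no mutant. Their median fold enrichment was not higher, at 6.26 against 6.87.

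The peaks that met both mutants lay in TOM1, DCLK2, PIAS4 and CALM2. TOM1, an adaptor of endosomal sorting, had 2 of them. The first, on chromosome 22 from 35342457 to 35342699, had a wild-type fold enrichment of 8.56 and lay wholly inside a 3A peak of 450 bp (11.7) and a 7A peak of 2872 bp (30.0). The second, from 35344288 to 35344453 (5.21), lay wholly inside a 3A peak of 759 bp (9.35) and a 7A peak of 2637 bp (13.6). In TOM1 the mutant peaks as listed were thus wider than the wild-type ones, with the depth and control of the 3 lists unknown. In DCLK2, on chromosome 4 from 150251725 to 150252167, the wild-type peak of 20.3 was met by 19.2 in 3A and 18.5 in 7A, with summits 36 bp and 1 bp away. The neighbouring DCLK2 peak (13.7), from 150250365 to 150250811, was met by a 7A peak (5.66) and by no 3A peak. PIAS4, a SUMO ligase gene, had a wild-type value of 6.87 inside a 3A peak of 670 bp (11.4) and a 7A peak of 674 bp (16.6). In CALM2 the peak 471 bp from the end had 11.2 in wild type, 10.4 in 3A and 10.1 in 7A, and its stronger neighbour (17.7) met neither mutant. SNRPB, a core spliceosomal protein gene, held the remaining peak that met 7A alone, with 8.02 in wild type and 6.12 in 7A. The 5 peaks that met both mutants had a median −log10 q of 23.9 and a median fold enrichment of 8.56.

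**Figure D5:**
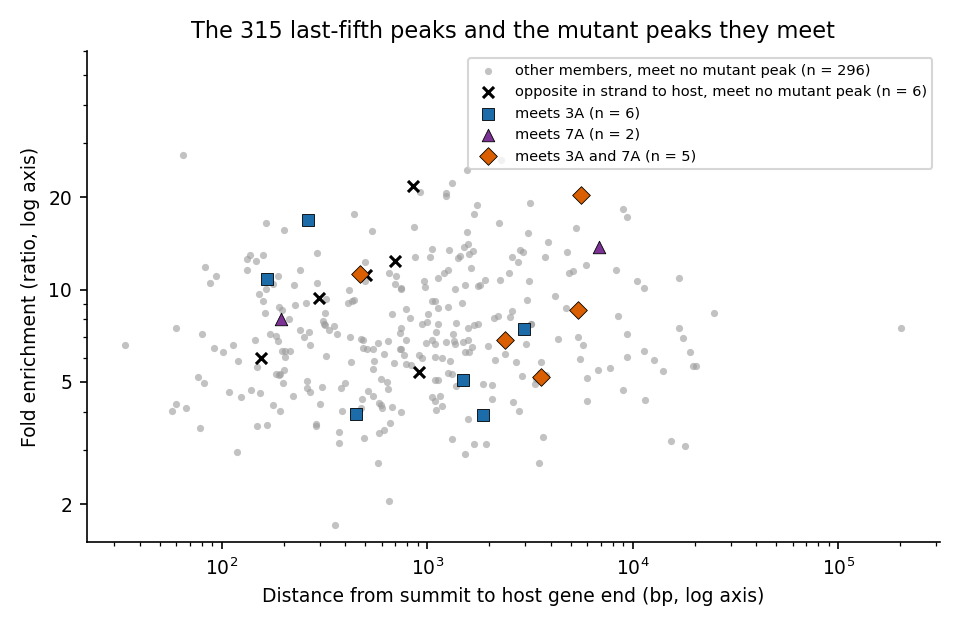
Each of the 315 last-fifth peaks by distance from summit to host gene end (x axis, bp, log) and fold enrichment (y axis, ratio, log), with symbols for peaks that meet a 3A peak, a 7A peak or both, and crosses for the 6 whose host lies on the other strand. The 13 peaks that meet a mutant peak run from 3.90 to 20.3 in fold enrichment.

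The mutants had last-fifth peaks of their own. In hosts of the same kind, 17 of 56 3A summits (30.4%) and 21 of 55 7A summits (38.2%) lay in the last 20% of the gene. For wild type it was 315 of 1519 summits (20.7%), and the difference was not tested. Of the 17, 12 met a last-fifth wild-type peak and 5 met no wild-type peak. Of the 21, 7 met one and 14 met no wild-type peak. The share that met a wild-type peak was not counted over all 103 3A and 88 7A peaks. These counts are therefore not shown to be particular to gene ends. The 5 3A peaks included those in ATP5F1B (8.64), IGF2 (5.46), ANXA2 (4.53) and MYH9 (2.96). The 14 7A peaks included 3 in PODNL1, 2 in SPARC, 1 in PIAS4 at 87.6% of the gene (19.3), 1 in IGF2 and 1 in ANXA2.

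Some placements are uncertain. The listed strand of the host was that of the peak for 260 of the 315, opposite for 6, and not listed for 49. Of the peaks with a listed host strand, 2.26% of the last-fifth peaks and 0.897% of the others were opposite. A further protein-coding gene also held the summit for 21 peaks. These include the pair in NME1 and the peak in NME2, where a read-through gene, NME1-NME2, spans both, and ERH, MAT2A, HNRNPAB and TYMS, which overlap GALNT16, GGCX, PHYKPL and ENOSF1. Just inside the boundary at 80% of the gene lay POLR2E at 80.0045% (7.70), LMNB2 at 80.1% (6.62) and EEF2 at 80.1% (3.90). Just outside it lay PTMA at 79.9% (9.67), TUBA1C at 79.9% (4.35) and CREB5 at 79.8% (16.0).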

How the data were processed

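FLAG-tagged MYC was profiled by eCLIP in U2OS cells lacking endogenous MYC, and 3 peak lists in narrowPeak layout were used, 1 per allele with doxycycline. The submitters' processing notes name hg38 as the build and list BWA, MACS2 and cutadapt. Versions, settings, the control and any pooling of replicates were not given in the sources used here. In the deposited lists each peak has a fold enrichment (a ratio), a −log10 q and a summit offset in bp, all from the authors. The −log10 p was not used.

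Positions were made 1-based and placed in RefSeq's gene table (GRCh38.p14, the same assembly), which holds spans without exons. Strands and starts came from the RefSeq promoter table, in which all 2759 overlapping pairs of neighbouring windows of opposite strand were reverse complements. Peaks were counted as meeting when they shared at least 1 bp. Shares have 95% Wilson intervals and medians order-statistic intervals, both over peaks of 1 list, so they cover counting error only. No test between groups was made. The placement code was tested on simulated data, where all 400 peaks were put in the right host and part of the gene. Each simulated peak had the strand of its host, and only a longer gene overlapped that host. Placement in a shorter gene of the other strand was therefore not tried.

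The members and gene lists were chosen with earlier results of these data known. Genes named are hosts of the 15 peaks of highest fold enrichment, of the 10 of highest −log10 q, of at least 3 peaks, or of a peak meeting a mutant peak, up to 5 per list, and those at the extremes of distance, width and boundary. Some were named after their values were seen: hosts opposite in strand, overlapping another gene, completing a list, or with a printed stretch, and hosts of mutant peaks. Some genes that this rule or the lists select are not reported here. SciPy 1.17.1, NumPy 2.4.6 and pandas 2.3.3 were run under Python 3.11.15.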

Additional observations from a re-analysis of the deposited data

How the results depend on the processing

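Of 96 alternative values of 9 results under 13 settings, 86 stayed within the interval of the reported value or, for counts, within 1.5 times of it. The 3A share ranged from 3.22% to 4.56% and the 7A share from 2.09% to 3.33%. Keeping fold enrichments at or above the list median left, by construction, 120 peaks in 105 hosts, with a median fold enrichment of 11.3 and −log10 q of 23.2. The share of hosts with a first-fifth peak was then 29.5%. The median distance to the gene end was 1131 bp under that setting, 651 bp with hosts of at least 2 kb, 1263 bp with hosts of at least 10 kb, 499 bp for the last 10% of the gene and 1126 bp for the last 25%. Taking the strand of the annotation gave 315 peaks in 238 hosts, and requiring a host on the strand of the peak, a setting chosen after seeing the data, gave 318 in 241. No paired analysis was possible because the files give peaks per allele and not per library. Leaving out single replicates could not be run either. The depth of the libraries is unknown, and the small number of mutant peaks limits every overlap.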
